A study of Mus musculus with 2 samples.

Results

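In all, 10 genes of MHC class II antigen presentation were followed in 2 RNA sequencing libraries of mouse liver: H2-Aa, H2-Ab1, H2-Eb1, H2-Eb2, H2-Ea-ps, H2-DMa, H2-DMb1, H2-Oa, Cd74 and Ciita. They were named by GENCODE symbol, with earlier results of these data known, and make up 10 of the 47442 features in the deposited tables. Of these libraries, 1 came from mice given an adenovirus with β-galactosidase (β-Gal), here control liver, and 1 from mice given an adenovirus with the guanylate-binding protein GBP5, here GBP5 liver. All mice were labelled C57BL/6 and 8 to 9 weeks old, received virus by the tail vein and were sampled after 10 days. The promoter of the transgenes, the cells they entered and the number of animals behind each library are not given in the labels. The series asks, by its title, whether extra GBP5 in liver brings injury and inflammation, and mouse Gbp5 itself stood at 4.24 FPKM in control liver and 19.1 FPKM in GBP5 liver.

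MHC class II molecules are pairs of an alpha and a beta chain that show peptides from endosomes to CD4+ T cells; mice have an A pair (H2-Aa with H2-Ab1) and, in some strains, an E pair (H2-Ea with H2-Eb1). The invariant chain Cd74 fills the groove of new pairs, H2-DM exchanges its remnant for peptide, and H2-DO holds H2-DM back, mainly in B cells. CIITA, the protein of Ciita, switches on these genes together by binding a protein complex on the X and Y boxes before their starts. Dendritic cells, B cells and macrophages make class II all the time, and interferon-gamma brings it out in many other cells.

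FPKM are fragments scaled by gene length and by the library's total of assigned fragments, so they compare genes per length. The totals of assigned reads were inferred from the FPKM and lengths of genes with 1 isoform. They came to 18405429 in control liver and 17205716 in GBP5 liver. With 1 library a group there was no test and no p-value, and "higher" or "lower" always describes GBP5 liver set against control liver. A gene was called at a log2 ratio of (FPKM + 1) of at least 1 or at most -1 when it had at least 1 FPKM in either library. Intervals are exact 95% intervals of the FPKM ratio from whole reads, and they cover counting error only. Most genes sat above parity: the median ratio of 11828 features with at least 1 FPKM in both libraries was 1.45, so ratios are also given after dividing GBP5 liver by it (rescaled).

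One gene went against the strain label. C57BL/6 mice carry the H-2b haplotype, in which a deletion removes the promoter and first exon of H2-Ea, so that no E alpha chain is made; the reference, also C57BL/6, lists the remnant as H2-Ea-ps, a polymorphic pseudogene. H2-Ea-ps (ENSMUSG00000036322, GRCm38 chr17:34341959-34344645, minus strand) had 0 reads in control liver and 2985 reads, or 252.9 FPKM, in the library labelled GBP5. Its log2 ratio of 7.99 ranked 1 of all 13599 measured features. A count of 0 was given a floor of 3 reads, or 0.238 FPKM, and against that floor the gene was 1064-fold higher. The lower end of its exact interval was 865-fold. Among 2514 named features listed at 0 in control liver only, it had the highest level, ahead of a processed pseudogene at 37.7 FPKM. Ifi202b, an interferon-inducible gene that C57BL/6 mice are known to express very little and that was picked after its value was seen, came next, with 0 and 1014 reads. What the virus and what a difference in strain or haplotype contribute to any class II value below cannot be told apart in these libraries.

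GENCODE gives the H2-Ea-ps transcript a length of 687 bases in 3 exons with 0 annotated start codons, and its first exon (chr17:34344398-34344644, minus strand) is shown because the annotated remnant starts there; capitals mark its first 3 bases, which are not a start codon.
H2-Ea-ps exon 1: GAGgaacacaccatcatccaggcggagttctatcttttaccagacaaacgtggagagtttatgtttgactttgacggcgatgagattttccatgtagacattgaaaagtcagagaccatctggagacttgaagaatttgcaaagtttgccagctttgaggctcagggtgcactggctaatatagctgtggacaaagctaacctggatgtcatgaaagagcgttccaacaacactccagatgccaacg

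The classical chains were abundant in both libraries and higher in GBP5 liver. H2-Ab1, the A beta chain (ENSMUSG00000073421, chr17:34257689-34269419), was at 135 FPKM in control liver and 417 FPKM in GBP5 liver, a 3.09-fold difference (interval 2.94 to 3.26, from 1946 and 5627 reads). H2-Aa, its alpha partner (ENSMUSG00000036594, chr17:34282744-34287823), was at 72.2 and 255 FPKM, 3.54-fold higher (interval 3.30 to 3.79). Within a library the A chains stood in a similar balance, with 1.87 times as much H2-Ab1 as H2-Aa in control liver and 1.63 times in GBP5 liver. H2-Eb1, the E beta chain (ENSMUSG00000060586, chr17:34305867-34316674), was at 61.0 and 374 FPKM, 6.14-fold higher (interval 5.79 to 6.51, from 1329 and 7625 reads). The interval of H2-Eb1 lay above those of both A chains. Its level relative to H2-Ab1 was 0.453 in control liver and 0.898 in GBP5 liver, where it was also 1.48 times the level of its alpha partner H2-Ea-ps. H2-Eb2, a beta chain gene beside H2-Eb1, was close to silent, with 2 reads in control liver and 4 in GBP5 liver, and no difference was detectable at this depth (interval 0.307 to 23.7).

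**Figure D1:**
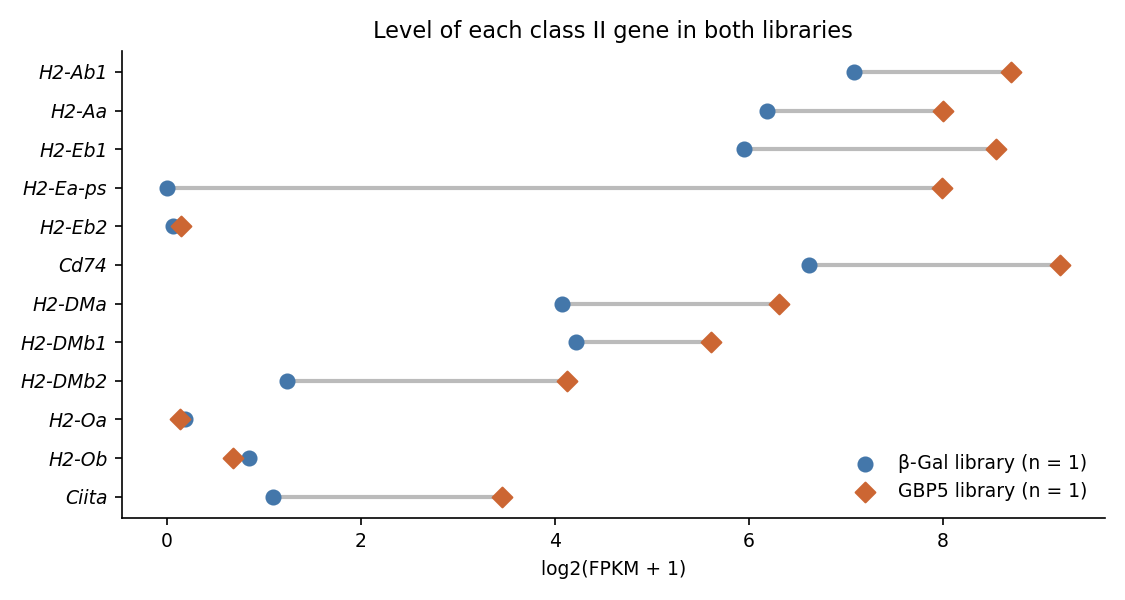
Level of each of the 10 genes and of H2-DMb2 and H2-Ob as log2(FPKM + 1) in control liver (circles) and GBP5 liver (diamonds), 1 library each, joined by a line. H2-Ea-ps starts at 0 and reaches 252.9 FPKM, whereas H2-Eb2, H2-Oa and H2-Ob stay under 1 FPKM in both.

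Cd74, the invariant chain, was the most abundant of the genes in GBP5 liver. It was second to H2-Ab1 in control liver, at 97.5 FPKM, and first in GBP5 liver, at 591 FPKM, 6.06-fold higher (interval 5.80 to 6.33, from 2377 and 13459 reads; ENSMUSG00000024610, chromosome 18). Per unit of H2-Ab1 there was 0.724 Cd74 in control liver and 1.42 in GBP5 liver. The 10 genes together held 400.2 FPKM in control liver and 2027 FPKM in GBP5 liver, or 0.0527% and 0.278% of all FPKM. Of that sum H2-Ab1 took 33.7% and then 20.6%, Cd74 24.4% and then 29.2%, and H2-Ea-ps 0% and then 12.5%.

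Among the peptide-loading genes, those of H2-DM were higher as deposited and H2-Ob of H2-DO was not. H2-Oa, the other H2-DO gene, had too few reads to tell. H2-DMa, the DM alpha chain (ENSMUSG00000037649, chr17:34119541-34139101), was at 15.9 and 78.6 FPKM, 4.95-fold higher (interval 4.39 to 5.60, from 322 and 1491 reads). H2-DMb1, a DM beta chain (ENSMUSG00000079547, chr17:34153072-34160230), was at 17.6 and 48.0 FPKM, 2.72-fold higher (interval 2.28 to 3.27), the smallest ratio among the measured genes of the set. Its log2 ratio of 1.40 became 0.88 after rescaling, short of the size rule. The neighbouring beta chain gene H2-DMb2, not among the 10, was at 1.36 and 16.5 FPKM, 12.2-fold higher (interval 8.20 to 18.8, from 27 and 307 reads), so that the level of H2-DMb1 over H2-DMb2 was 13.0 in control liver and 2.91 in GBP5 liver. The first transcripts of H2-DMb1 and H2-DMb2 in GENCODE were 95.2% identical over 1094 aligned positions, with an identical run of 221 bases, so the split of reads between them is uncertain. H2-Oa, the DO alpha chain (ENSMUSG00000024334, chr17:34092340-34095234), had 3 reads in control liver and 2 in GBP5 liver, and no difference was detectable (interval 0.0596 to 6.23). H2-Ob, its beta partner, had 24 and 17 reads, 0.758 of control (interval 0.382 to 1.47), an interval that lies below every interval of the DM genes.

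Ciita, the regulator (ENSMUSG00000022504, chr16:10480059-10528418), was low in control liver, at 1.14 FPKM, and at 10.01 FPKM in GBP5 liver. Its ratio of 8.80 (interval 7.21 to 10.8; 110 and 905 reads) was the highest plain ratio of the members present in both libraries; its log2 ratio with the pseudocount, 2.36, lies below those of H2-Eb1 (2.60) and Cd74 (2.59) because the pseudocount weighs more on a low gene.

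**Figure D2:**
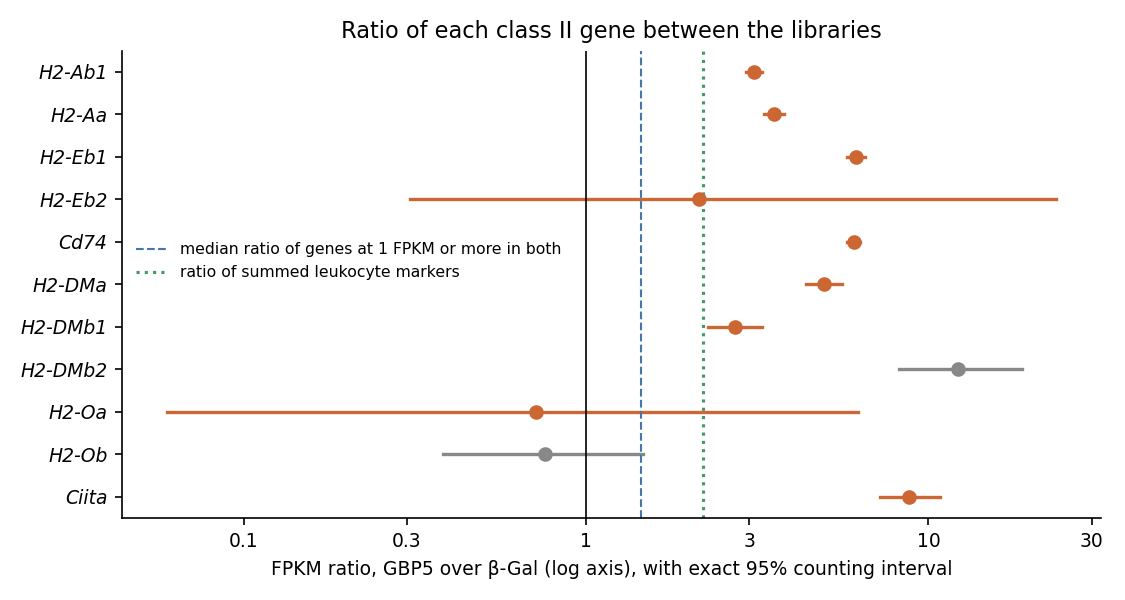
FPKM ratio of GBP5 liver over control liver on a log axis, with exact 95% counting intervals, for 9 members with reads in both libraries (orange) and for H2-DMb2 and H2-Ob (grey); H2-Ea-ps, with 0 reads in control liver, is left out. H2-Ab1, H2-Aa, H2-Eb1, Cd74, H2-DMa, H2-DMb1 and Ciita sit to the right of the dashed line at the median ratio of 1.45 and of the dotted line at the leukocyte marker ratio of 2.20.

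Altogether, 8 of the 10 genes reached 1 FPKM in either library, and 8 of these were at least 2-fold higher, against 19.2% of all 13599 measured features; none was lower, against 5.56%. H2-Ea-ps passed that filter through GBP5 liver alone, and H2-Eb2 and H2-Oa did not pass it. The median log2 ratio was 2.30, beside 0.48 over all measured features, and 2.24 over the 7 genes other than H2-Ea-ps, all of them at least 2-fold higher. After rescaling, 7 were at least 2-fold higher, against 7.04% of all features, none was lower, against 9.38%, and the median was 1.80. Among the 7 genes other than H2-Ea-ps, H2-DMb1 alone fell short after rescaling, and the median was 1.71, the value of H2-DMa. The 8 genes ranked between 1 and 1089 of 13599 by log2 ratio, with H2-DMb1 at 1089, H2-Ab1 at 701 and H2-Eb1 at 113.

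Letters of the X and Y boxes stood before abundant and near-silent class II genes alike. RefSeq windows (GRCm38.p6, 250 bases before to 50 after a start) were given for 8 class II genes in 9 windows; H2-Ab1, H2-Ea-ps, Cd74 and Ciita had no window in the table. Letters searched on both strands were AGNAAC for the X1 box, GATTGG for the Y box, AGNAAC followed on the same strand by GATTGG with 10 to 40 bases between, TTCNNNGAA for an interferon-gamma activated site (GAS) and CACGTG for an E-box. The X1-Y pair was found in 5 of the 8 genes and in 0.554% of all 32851 windows. AGNAAC was in 6 of the 8, and in 48.1% of all windows. All 8 genes held GATTGG, which 16.1% of all windows hold, GAS letters were found in H2-DMb2 alone (8.30% of windows) and the E-box in none (7.15% of windows). The stretches from 140 to 31 bases before the start are shown because they hold these letters in both abundant and near-silent genes; capitals mark the pair, or GATTGG alone where there was no pair.
H2-Eb1 (chr17:34305727-34305836, plus strand): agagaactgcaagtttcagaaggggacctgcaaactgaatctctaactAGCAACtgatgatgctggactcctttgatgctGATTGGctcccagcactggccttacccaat
H2-DMb1 (chr17:34153051-34153160, plus strand): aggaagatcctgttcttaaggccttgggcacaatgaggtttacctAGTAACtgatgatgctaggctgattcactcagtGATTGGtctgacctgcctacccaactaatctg
H2-Eb2 (chr17:34325535-34325644, plus strand): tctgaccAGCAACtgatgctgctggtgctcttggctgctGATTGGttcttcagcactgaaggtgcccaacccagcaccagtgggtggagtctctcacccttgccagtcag
H2-Oa (chr17:34092239-34092348, plus strand): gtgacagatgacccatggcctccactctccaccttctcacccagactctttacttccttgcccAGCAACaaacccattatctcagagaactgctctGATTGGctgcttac
H2-Ob (chr17:34238765-34238874, plus strand): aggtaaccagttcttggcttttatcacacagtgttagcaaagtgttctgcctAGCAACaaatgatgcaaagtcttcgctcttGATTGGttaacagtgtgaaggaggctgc
H2-Aa (chr17:34287854-34287963, minus strand): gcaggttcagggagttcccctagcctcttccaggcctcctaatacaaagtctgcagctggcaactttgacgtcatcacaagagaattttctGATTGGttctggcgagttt
H2-DMb2 (chr17:34145109-34145218, plus strand): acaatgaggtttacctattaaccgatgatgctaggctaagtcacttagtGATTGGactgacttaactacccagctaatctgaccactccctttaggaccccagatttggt
The pair stood in H2-Eb1 and H2-DMb1, which were higher in GBP5 liver, and equally in H2-Eb2, H2-Oa and H2-Ob, which stayed under 1 FPKM in both libraries. In H2-Eb1 and H2-Eb2 the 2 boxes were 26 bases apart, in H2-DMb1 and H2-Oa 27 and in H2-Ob 24. H2-Aa and H2-DMb2 held GATTGG but not the exact X1 letters, and H2-DMa held GATTGG only at base -199 of the second of its windows. A match describes letters, not binding.

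**Figure D3:**
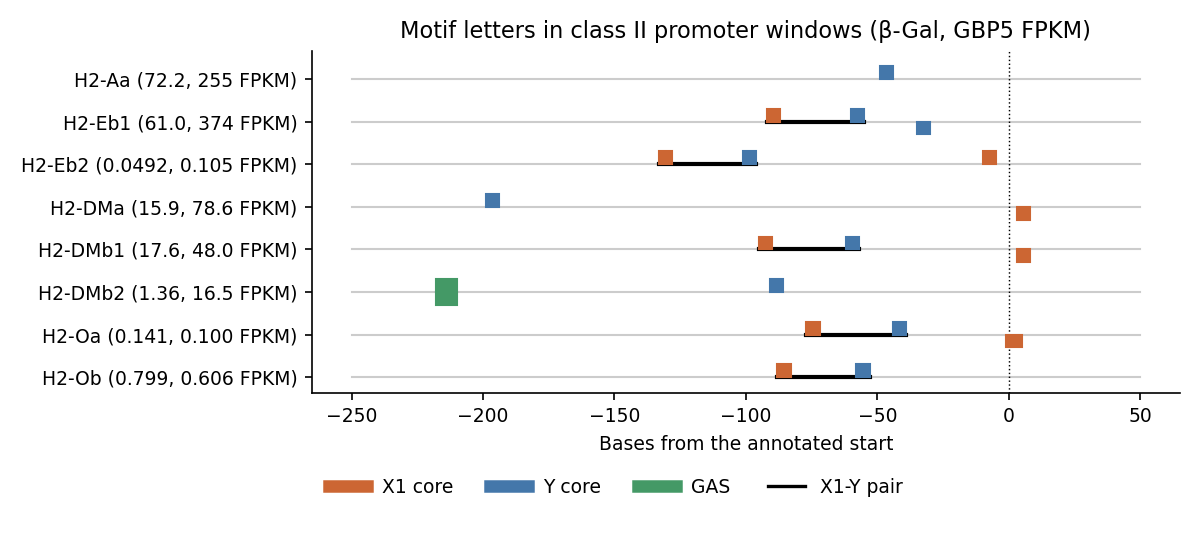
Positions of the searched letters in the promoter windows of 8 class II genes, in bases from the annotated start, with the FPKM of each gene in control (β-Gal) and GBP5 liver; boxes above a line are on the gene's strand and boxes below it on the other strand, and a black bar joins an X1-Y pair. The pair appears in H2-Eb1 and H2-DMb1 and also in H2-Eb2, H2-Oa and H2-Ob, the genes under 1 FPKM.

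Except for Cd74 and Ciita, the genes lie in 1 stretch of chromosome 17, and most other measured genes of that stretch were higher as deposited. From the start of H2-Oa to 100 kb past H2-Ea-ps, 13 of 25 features were measured. At least 2-fold higher were 12, against 19.2% of all measured features, or 7 after rescaling, against 7.04%. These counts include the class II genes described above, with H2-Ea-ps, which was measured through GBP5 liver alone. Of the 5 genes outside class II with at least 1 FPKM in both libraries, 4 were higher as deposited and 1 after rescaling. Psmb8, a subunit of the immunoproteasome, was at 38.7 and 124 FPKM (3.19-fold, log2 ratio 1.12 rescaled). Psmb9, another subunit, was 2.27-fold higher, and Tap1 and Tap2, which carry peptides to class I molecules, 2.51-fold and 2.21-fold. Btnl2, a butyrophilin-like gene next to H2-Ea-ps, had 0 reads in control liver and 53 in GBP5 liver, and passed the filter through GBP5 liver alone. Brd2, a chromatin reader, was not called at 53.2 and 98.6 FPKM; it overlaps H2-DMa on the other strand, and the strand setting of the counting is not known, so reads in that overlap cannot be assigned with certainty. High and near-silent class II genes alternated along the stretch: H2-Ob lies between Tap2 and H2-Ab1, and H2-Eb2 between H2-Eb1 and H2-Ea-ps.

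**Figure D4:**
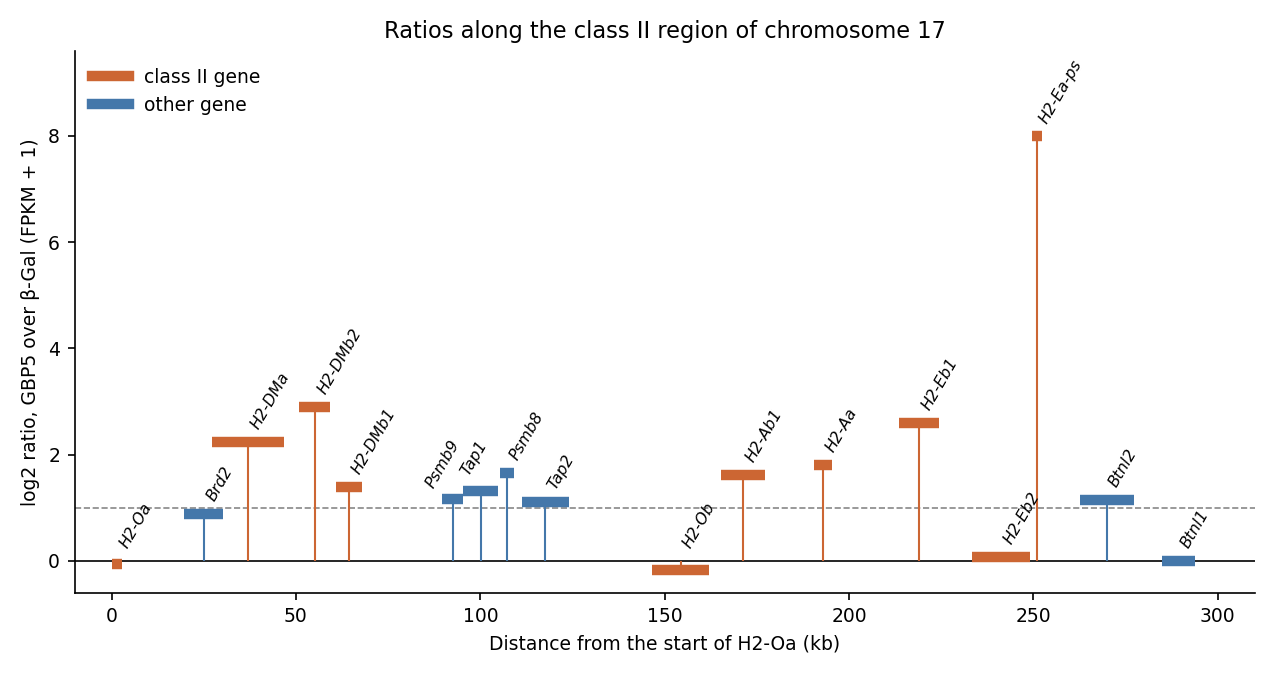
Log2 ratio of (FPKM + 1), GBP5 over β-Gal, for named genes against distance in kb from the start of H2-Oa; thick bars span each gene, class II genes are orange and others blue, and the dashed line marks 2-fold. H2-Ea-ps stands at 7.99, between H2-Eb2 at 0.08 and Btnl2 at 1.14.

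Genes upstream of Ciita were higher in part. Of 11 genes that lead from interferon-gamma to Ciita, 5 passed the size rule upward and 0 downward (rescaled, 3 and 0). Of all measured features, 19.2% and 5.56% did so (rescaled, 7.04% and 9.38%). The median log2 ratio of the 11 genes was 0.97. Socs1, a feedback inhibitor of this pathway, was at 2.32 and 13.9 FPKM (5.99-fold, interval 4.44 to 8.20). Ifng, the cytokine itself, was scarce, with 8 reads in control liver and 68 in GBP5 liver, a ratio of 9.09 (interval 4.36 to 21.9). It passed the filter through GBP5 liver alone; of the 10 others in its list, 4 were higher. Of 12 listed transcription factors and coactivators of class II expression, 2 passed upward and 0 downward (rescaled, 1 and 0). That share was near the 19.2% of all features, and the median of the 12 was 0.81. The 2 called were Irf8, a factor of dendritic cells and macrophages (3.16-fold), and Irf1 (2.08-fold), which is also in the list above. The 10 others, among them Spi1 at 1.91-fold, Nfya, Nfyb, Nfyc and Creb1, were not called. The X box subunits, named after their values were seen, were Rfx5 at 2.10-fold, Rfxank at 2.35-fold and Rfxap at 1.30-fold; all 3 stayed short of the size rule with the pseudocount.

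Of 15 endosomal processing genes, 5 passed upward and 0 downward, against 19.2% and 5.56% of all measured features. After rescaling 2 passed upward and 1 downward, against 7.04% and 9.38%. The median of the 15 genes was 0.76 as deposited and 0.23 rescaled. Ifi30, a thiol reductase that opens antigens, was at 59.6 and 203 FPKM (3.41-fold), cathepsin C (Ctsc) was 2.94-fold higher and cathepsin S (Ctss), which trims the invariant chain, 2.89-fold. Marchf8 (March8 in the annotation), a ligase of a family that removes class II from the surface, picked out by its value, was the one lower after rescaling (log2 ratio -1.02), at 77.2 and 54.5 FPKM. Marchf1, of the same family, was higher as deposited but not rescaled (log2 ratios 1.12 and 0.65), at 3.75 and 9.31 FPKM. Of 5 measured costimulatory genes, 3 passed upward and 0 downward (rescaled, 1 and 0), against the same shares of all measured features. The 3 were Cd274, which encodes the inhibitory ligand PD-L1 (4.22-fold), Cd86 (2.79-fold) and Cd40 (2.59-fold). The 2 others, Cd80 and Icosl, passed the filter through GBP5 liver alone and were not called.

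On the T cell side, 6 of 8 measured genes passed upward and 0 downward (rescaled, 3 and 0). The shares of all measured features were 19.2% and 5.56% (rescaled, 7.04% and 9.38%). The median of the 8 genes was 1.37. Cd28, Ctla4 and Icos passed the filter through GBP5 liver alone, and of the 5 genes at 1 FPKM or more in both libraries 4 were higher. The costimulatory receptor Cd28 was 6.03-fold higher (interval 4.28 to 8.72) and the T cell receptor subunits Cd3e and Cd3g 3.76-fold and 2.88-fold. Cd4, the coreceptor that binds class II, named after its value was seen, had 57 reads in control liver and 52 in GBP5 liver, a ratio of 0.976 (interval 0.657 to 1.45).

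Markers of cells that make class II moved with these genes in some lists and not in others. In bulk tissue, more cells of a type and more RNA per cell cannot be told apart. The counts of every marker list below stand beside 19.2% of all measured features higher and 5.56% lower, or 7.04% and 9.38% after rescaling. All 6 general leukocyte markers were measured, 4 were at least 2-fold higher (0 after rescaling), and their summed level was 288 FPKM in control liver and 636 FPKM in GBP5 liver, a ratio of 2.20. Cd52, Ptprc and Laptm5 were 2.75-fold, 2.30-fold and 2.19-fold higher. Dividing GBP5 liver by that ratio, a choice made after seeing the data, left 5 of the 8 measured class II genes at least 2-fold higher. These were H2-Eb1, H2-Ea-ps, Cd74, H2-DMa and Ciita, of which H2-Ea-ps was measured through GBP5 liver alone. H2-Aa, H2-Ab1 and H2-DMb1 had log2 ratios of 0.68, 0.49 and 0.29. The share of all features at least 2-fold higher under this division was not counted. Dendritic cell markers were higher in 3 of 6 measured cases, before and after rescaling, and the 10 listed summed to 15.1 and 54.4 FPKM (3.61-fold). Itgax, the integrin CD11c, was 5.65-fold higher, Batf3 4.34-fold and Clec9a 4.24-fold. The 3 other measured markers were not called. Zbtb46 had 93 and 107 reads (ratio 1.23, interval 0.923 to 1.64), Clec10a 32 and 51 reads and Siglech 22 and 33 reads. Siglech was measured through GBP5 liver alone. Flt3 and Xcr1 stayed under 1 FPKM in both libraries, with ratios of 1.96 and 2.34.

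B cell markers did not share the direction. None of the 10 listed was called, 8 were under 1 FPKM in both libraries, and their sum was 6.39 FPKM in control liver and 5.16 FPKM in GBP5 liver, a ratio of 0.807. Cd79a, part of the B cell receptor, had 31 and 13 reads (ratio 0.449, interval 0.215 to 0.882; measured through control liver alone) and Cd79b 42 and 28 reads. Kupffer cell markers summed to 339 and 485 FPKM, or 148 and 140.4 FPKM without Cd5l, the most abundant of them. Of 7 measured, 2 were lower and 0 higher, before and after rescaling: Folr2 (0.250 of the control level) and Vsig4 (0.243). Marco was 1.91-fold higher and not called. Monocyte and macrophage markers were higher in 4 of 10 cases (2 higher and 1 lower after rescaling) and summed to 450.3 and 628 FPKM, with Gpnmb 17.1-fold, Mpeg1 2.98-fold and Cd68 2.39-fold higher. Lyz2, the most abundant of them, stood at 262 and 174 FPKM (ratio 0.663, interval 0.626 to 0.703) and was the one lower after rescaling, and Cx3cr1 stood at 0.627 of control (interval 0.484 to 0.808). The part of each cell type in the class II values was not tested.

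Markers of other liver cells went in both directions, and most T and NK cell markers were higher as deposited. Of 7 sinusoidal endothelial markers, 2 passed upward and 0 downward (rescaled, 0 and 1, the latter being Clec4g, picked out by its value), and they summed to 128 and 163 FPKM; Lyve1 was 2.54-fold, Dnase1l3 2.15-fold and Pecam1 1.90-fold higher, the last not called. Cholangiocyte markers had 1 of 6 higher and 1 lower (0 and 1 after rescaling), Cldn7 (3.55-fold) and Krt19 (0.149 of the control level), with Krt7 at 0.621; Krt19 and Krt7 were measured through control liver alone. Stellate cell markers had 1 of 6 higher, before and after rescaling, Col1a1 (4.20-fold), with Pdgfrb at 1.71-fold and Des at 1.30-fold. Of 6 hepatocyte markers, which check the tissue, 2 passed downward and 0 upward (rescaled, 5 and 0): Tat (0.340 of the control level), Ttr (0.459) and, not called as deposited, Alb (0.585), at 74174 and 43416 FPKM. T cell markers were higher in 6 of 7 cases (2 after rescaling), with Cd8a 3.91-fold, and NK cell markers in 3 of 4, before and after rescaling, with Gzmb 4.26-fold, Klrk1 4.12-fold and Prf1 5.82-fold, the last measured through GBP5 liver alone. Ncr1, also measured through GBP5 liver alone, was not called (14 and 43 reads), and Klrb1c and Eomes stayed under 1 FPKM in both libraries.

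**Figure D5:**
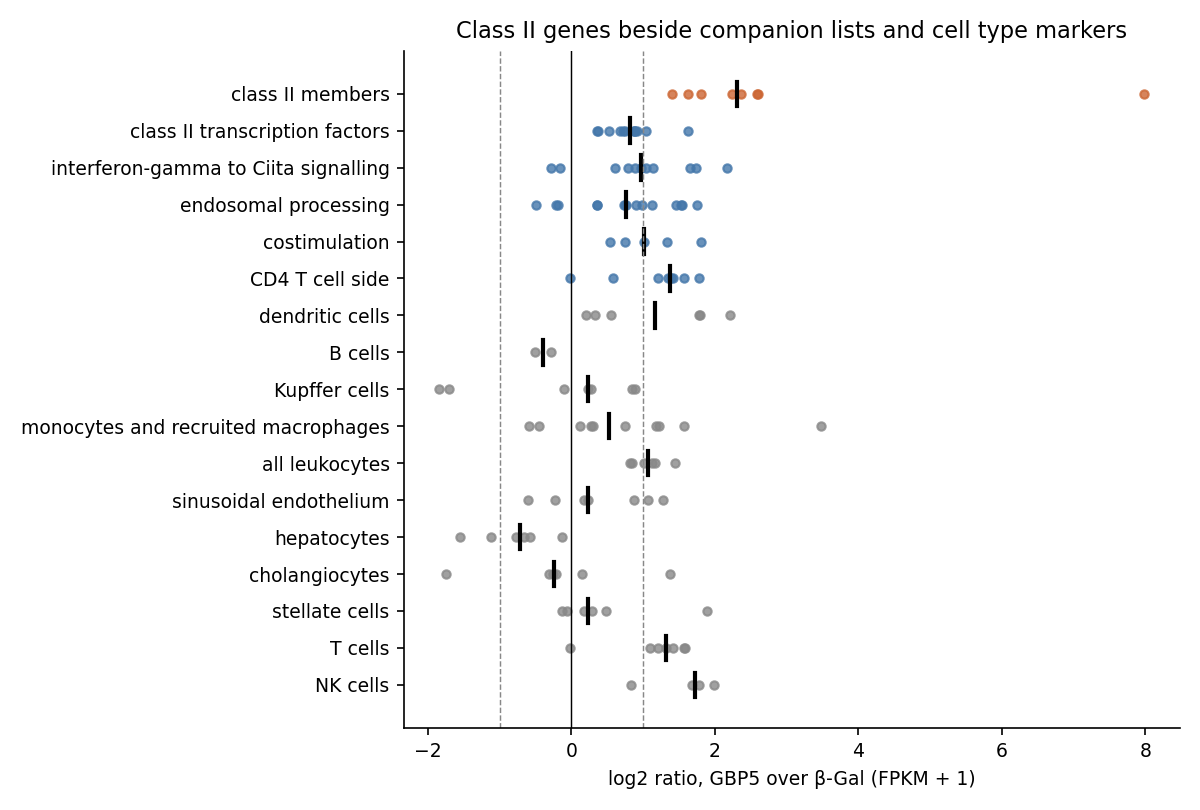
Log2 ratio of (FPKM + 1), GBP5 over β-Gal, for each measured gene (points) and the list median (black bar) of the 8 measured class II members (orange), 5 companion lists (blue) and 11 cell type marker lists (grey); dashed lines mark 2-fold. The class II median of 2.30 lies to the right of the dendritic cell median of 1.16 and of the B cell median of -0.40. The class II points include H2-Ea-ps, measured through GBP5 liver alone. The B cell median rests on 2 genes, 1 of them measured through control liver alone.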

How the data were processed

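Liver RNA was sequenced from 1 β-Gal and 1 GBP5 library, grouped by the virus in the labels. The deposited values are FPKM per gene. The tools TopHat2 and HTSeq (version 0.6.1) and the build GRCm38 are named per the submitters' processing notes. The annotation release, strand setting, treatment of reads with several matches and FPKM program are not given in the labels. FPKM divides by each library's total, so a few abundant genes can shift all others.

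Symbols, positions and isoforms came from GENCODE M21 by identifier, for 46488 of 47442 features. FPKM times the library total came out as a ratio of whole reads to a whole length of at most 20000 bases for 99.99% of 22538 features above 0, to a relative tolerance of 1e-11. The smallest such numbers were used, which gives the widest interval. For 70.0% of named features above 0 that length divided the rounded mean isoform length. Because that mean includes short isoforms, small differences in level between genes carry little weight.

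The log2 ratio used a pseudocount of 1 FPKM and a filter of 1 FPKM in either library. Intervals are exact (Clopper-Pearson) given the sum of both reads, and a floor of 3 reads stood for 0. Members and lists were chosen with earlier results of these data known. Named genes were the members, H2-DMb2, H2-Ob, the expressed genes of the chromosome 17 stretch, the 3 largest absolute log2 ratios of each of 5 companion and 11 marker lists, and the 5 genes nearest H2-Ab1. Of these, 1 list gene is not reported here. Other settings tried were a pseudocount of 0.1 or 5 FPKM, a filter of 5 FPKM or none, division by the median ratio, equal sums (TPM), equal sums without the 50 most abundant features and protein-coding genes only; division by leukocyte markers was added after seeing the data. Promoters are RefSeq's (GRCm38.p6) and transcripts GENCODE's, aligned with Biopython 1.88. Python 3.11.15, pandas 2.3.3 and scipy 1.17.1 were used, and the procedure was tested on simulated data.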

Additional observations from a re-analysis of the deposited data

How the results depend on the processing

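With 1 library a group, no library could be left out, and no paired analysis was possible because each group held a single library. All 8 measured class II genes kept log2 ratios above 0 in every alternative run. The count of these at least 2-fold higher stayed at 8 with either pseudocount, no filter, a filter of 5 FPKM, TPM and equal sums without the 50 most abundant features. It was 7 after division by the median ratio, which dropped H2-DMb1, 7 with protein-coding genes only, which leaves out H2-Ea-ps, and 5 after division by the leukocyte marker ratio. Their median log2 ratio, 2.30 as reported, was 2.45 and 1.88 with pseudocounts of 0.1 and 5 FPKM, 2.02 with no filter (over all 10 genes, H2-Eb2 and H2-Oa included), 1.80 after division by the median ratio, 2.44 as TPM, 2.16 without the 50 most abundant features, 2.24 with protein-coding genes only (over 7) and 1.25 after division by the leukocyte marker ratio.

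Over all features, 1101 were higher and 435 lower with a pseudocount of 5 FPKM, and 958 and 1276 after division by the median ratio. A pseudocount of 0.1 FPKM gave 3606 and 946 of 13599, and TPM gave 3274 and 782 of 14321. Equal sums without the 50 most abundant features gave 1922 and 865 of 13440. For division by the leukocyte marker ratio no such count was made. Among the companion lists, a pseudocount of 0.1 FPKM gave 4 of 12 class II transcription factors higher. With 5 FPKM, 1 of these 12, 3 of 11 interferon-gamma genes, 1 of 5 measured costimulatory genes and 1 of 8 measured T cell genes were higher. Division by the median ratio gave 1 transcription factor, 3 interferon-gamma genes, 2 endosomal genes, 1 costimulatory gene and 3 T cell genes, and equal sums without the 50 most abundant features gave 1 transcription factor and 3 interferon-gamma genes. These shifts come from the settings alone, because every run used the same deposited values. Depth limits H2-Eb2, H2-Oa, Ifng and the B cell markers, which rest on a few reads.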

Other observations

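The 5 protein-coding genes nearest to H2-Ab1 in log2(FPKM + 1) over the 2 libraries were Psme1, an activator subunit of the immunoproteasome (149 and 371 FPKM), Lgals3bp (121 and 484 FPKM), Hnrnpa3 (163 and 411 FPKM), Ctsc (121 and 355 FPKM) and Anxa5 (114 and 463 FPKM). With 2 libraries, nearness is a matter of level and ratio only.

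The X1-Y letters were also in the promoter windows of 160 genes other than the class II genes. Of these, 85 were measured and 14, or 16.5%, were at least 2-fold higher, against 18.8% of the 9966 measured genes with a promoter window, and their median log2 ratio was 0.49, as it was for all those genes.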
